A study of Mus musculus with 10 samples.

Results

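The 40 genes described here encode the machinery that copies DNA in S phase: the MCM helicase, the proteins that load and activate it at origins, the sliding clamp and its loader, the replicative polymerases, the enzymes that finish Okazaki fragments and supply deoxynucleotides, cyclin E and 2 subunits of the chromatin assembly factor CAF-1. They were taken from a list of symbols chosen with earlier results of these data known. Each is represented by the array probe that carried this symbol alone. Where a gene had several such probes, the one with the highest mean over all arrays was used. All 40 were measured, among 19938 genes in all. Whole-transcript arrays were hybridised with total RNA of whole tumors that MC38 colon carcinoma cells, a mouse line, had formed under the skin of C57BL/6 mice. Of the tumors, 5 had received CpG1826 (50 µg in a volume of 50 µL of PBS) when they measured about 40 mm2, and were taken 6 h later. The other 5 tumors had been injected with PBS, for which the same size and time were assumed because the labels word the protocol alike for every sample. CpG1826 is a synthetic DNA oligonucleotide whose unmethylated CpG dinucleotides are sensed by TLR9 in endosomes. The host's own immune, stromal and skin cells contribute RNA to such a tumor besides the carcinoma cells, and fewer cells of a type and less RNA per cell cannot be told apart in it. Each array was taken as 1 mouse and is named by the mouse number in its title.

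Before replication, the origin recognition complex (ORC) together with Cdc6 and Cdt1 places a ring of MCM proteins on DNA in G1. In S phase Cdc45 and the GINS complex turn this ring into the active helicase, and polymerases held by the clamp PCNA copy both strands. Many of these genes are known targets of E2F transcription factors, which are released from the retinoblastoma protein when cyclin-dependent kinases become active, so that their transcripts are commonly read together as a sign of cycling cells.

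Every one of the 40 replication genes had a lower mean in CpG1826 tumors than in PBS tumors, but the differences were small, and only 5 of them passed the test. Cdc6, Tk1, Pcna, Mcm5 and Mcm3 fell at an adjusted p under 0.05 (limma over all 19938 genes with Benjamini-Hochberg adjustment), and 0 rose. Among all genes tested, 1.1% were called lower and 3.56% higher by this rule, and 1.7% were called lower among the 9969 genes at or above the median level, to which 39 of the 40 belong. The median log2 difference was -0.17 over the 40 genes, from -0.47 for Cdc6 to -0.04 for Ccne1, against -0.02 over all genes. A difference below 0 was found for 58% of all genes and for 53.4% of those at or above the median level. Since the 40 were chosen with earlier results of these data known, their shared direction is a description and not a test. Of 32 further genes of the replication fork outside the list, 24 were below 0 and 8 above. The 5 CpG1826 values lay below all 5 PBS values for 10 of the 40 genes, as they did for 2.42% of all genes and 4.01% of those at or above the median level. At an unadjusted p under 0.05, 19 of the 40 were lower and 0 higher, where 1481 (7.43%) of all 19938 genes were lower and 1620 higher.

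**Figure D1:**
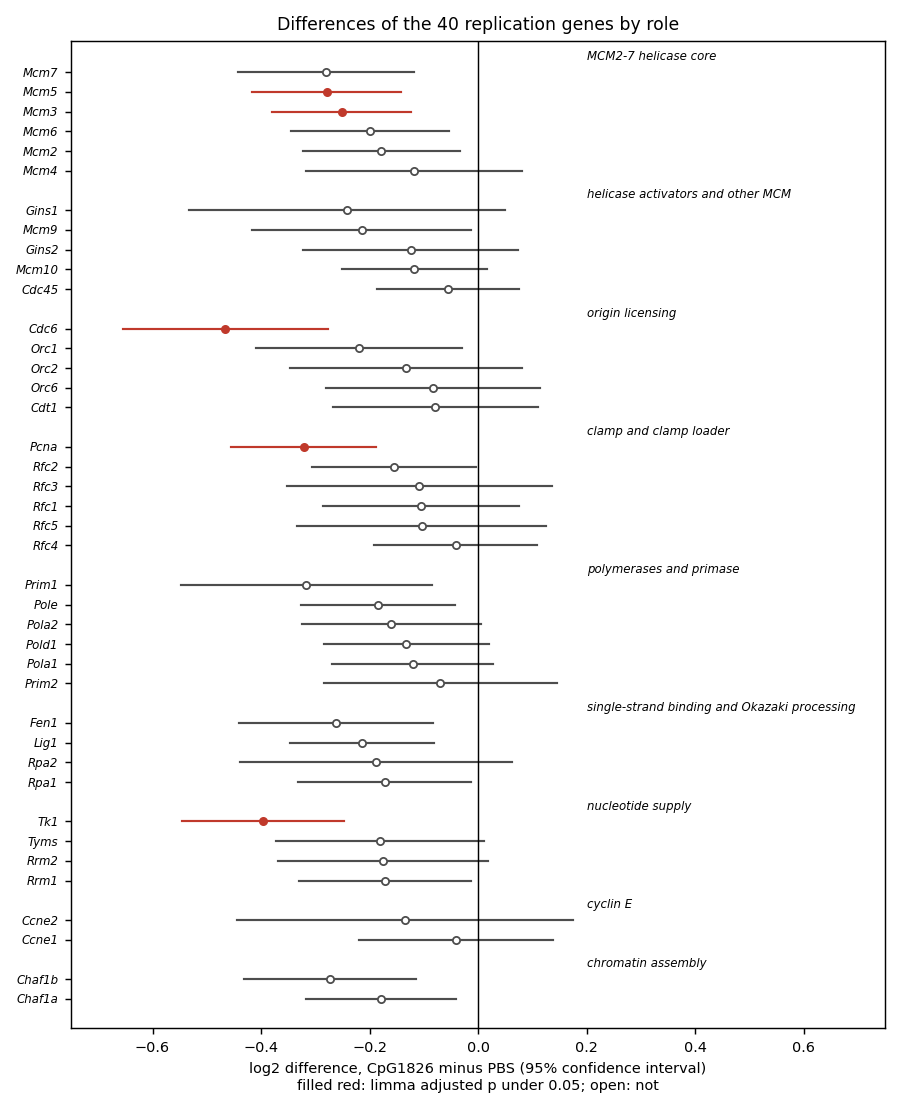
Difference of each of the 40 replication genes on the log2 scale (x axis, CpG1826 minus PBS, n = 5 tumors per group), grouped by role, with the 95% confidence interval of the limma fit as a line. All 40 points lie below 0, and the 5 filled red points (Mcm5, Mcm3, Cdc6, Pcna and Tk1) have an adjusted p under 0.05.

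**Figure D2:**
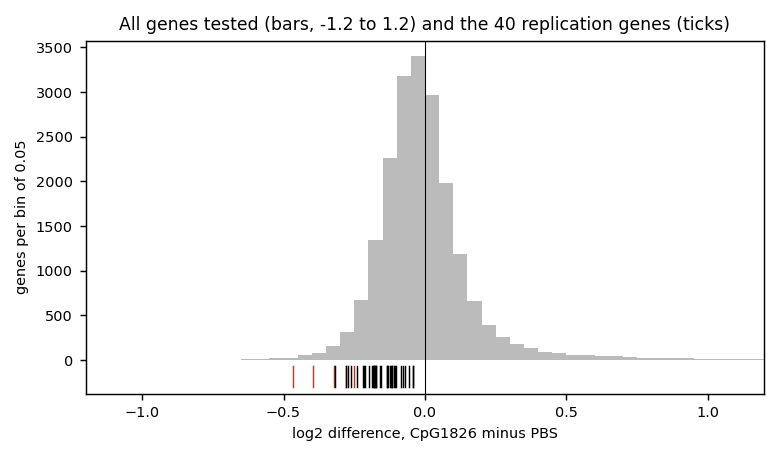
Number of genes per bin of 0.05 in the log2 difference CpG1826 minus PBS (bars, 19852 of 19938 genes, the other 86 lying beyond the axis) with the 40 replication genes as ticks under the axis, red where called. The ticks lie between -0.47 and -0.04, all to the left of 0, with Cdc6 and Tk1 in the lower tail of all genes.

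Because the members lay lower together, their promoters were searched for the E2F consensus, written as the 4 words TTTCCCGC, TTTCGCGC, TTTGCCGC and TTTGGCGC on both strands, with overlapping matches counted. RefSeq sequence of the assembly GRCm38.p6, 250 bases before to 50 after a start, was at hand for 33 of the 40 genes. They had 38 such windows, and in 20 of these the start was the annotated 5′ end of the gene. A match was found for 11 of the 33, where 2.6% of all 27025 genes with such sequence had one. Since many of the 40 are known E2F targets, a larger share than over all genes could be foreseen from the list. A part of E2F factors in the lower levels was not tested. The median log2 difference was -0.21 for the 11 genes with a match and -0.17 for the 22 without. A match is a description of the letters and not a binding site. The sequences of 3 called genes and of Mcm6, which had the most matches, follow 5′ to 3′ on the strand of the gene, with matches in capitals. For Mcm5, Mcm6 and Cdc6 the 250 bases before the start are shown, and for Mcm3 the 30 bases that hold both of its matches, which begin 20 and 39 bases into the transcript.
Mcm5, chr8:75109259-75109508, plus strand: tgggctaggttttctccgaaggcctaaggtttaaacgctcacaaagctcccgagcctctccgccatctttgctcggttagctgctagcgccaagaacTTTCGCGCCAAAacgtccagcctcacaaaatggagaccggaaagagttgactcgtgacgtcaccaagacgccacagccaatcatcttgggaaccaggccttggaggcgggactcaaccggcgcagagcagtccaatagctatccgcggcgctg
Mcm6, chr1:128359706-128359955, minus strand: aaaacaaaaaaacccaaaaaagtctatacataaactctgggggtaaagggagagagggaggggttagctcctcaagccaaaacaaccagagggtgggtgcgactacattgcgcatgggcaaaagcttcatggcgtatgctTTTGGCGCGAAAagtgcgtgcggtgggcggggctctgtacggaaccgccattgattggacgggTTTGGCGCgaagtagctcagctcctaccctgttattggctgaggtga
Cdc6, chr11:98907901-98908150, plus strand: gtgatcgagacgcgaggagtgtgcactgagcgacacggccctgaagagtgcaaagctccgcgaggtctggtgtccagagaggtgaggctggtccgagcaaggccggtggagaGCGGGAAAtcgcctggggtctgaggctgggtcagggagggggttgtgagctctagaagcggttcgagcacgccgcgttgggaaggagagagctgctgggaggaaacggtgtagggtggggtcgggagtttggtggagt
Mcm3, chr1:20820265-20820294, minus strand: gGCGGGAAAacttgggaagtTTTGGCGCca
In Mcm5 matches on opposite strands overlap, beginning at -153 and -149 from the start. In Mcm6 matches begin at -110, -106 and -47, and in Cdc6 1 match begins at -138. Pcna and Tk1 had no match to these 4 words in this window.

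Cdc6, the ATPase that helps to load the MCM ring at origins, had the largest fall of the 40. Its log2 values were 8.89, 8.52, 8.55, 8.59 and 8.54 in PBS mice 26, 29, 482, 592 and 661, and 7.97, 8.23, 8.12, 8.12 and 8.32 in CpG1826 mice 50, 58, 183, 189 and 595. Every CpG1826 tumor lay below every PBS tumor, with mouse 50 lowest and PBS mouse 26 well above the other 4 PBS tumors. The mean fell from 8.62 ± 0.15 to 8.15 ± 0.13 (SD, n = 5 per group), which is 1.38-fold (95% confidence interval 1.21 to 1.57, limma adjusted p = 0.00684).

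Tk1, the thymidine kinase of the salvage pathway, whose transcript is known to peak in S phase, was next. Its values in the same order of mice were 9.57, 9.45, 9.29, 9.39 and 9.41 with PBS and 9.01, 9.09, 9.09, 8.89 and 9.03 with CpG1826, again without overlap. The mean fell from 9.42 ± 0.10 to 9.02 ± 0.08 (SD, n = 5 per group), or 1.32-fold (1.19 to 1.46, limma adjusted p = 0.0040). A second probe of Tk1 gave a log2 difference of -0.36, also without overlap between the groups.

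Pcna, the sliding clamp that keeps polymerases on DNA, was 11.26, 11.11, 11.03, 11.14 and 11.11 in the PBS tumors and 10.81, 10.87, 10.77, 10.77 and 10.84 in the CpG1826 tumors. The CpG1826 values were the tighter set, with a mean of 10.81 ± 0.04 against 11.13 ± 0.08 (SD, n = 5 per group). The fall was 1.25-fold (1.14 to 1.37, limma adjusted p = 0.00777), and a second Pcna probe differed by -0.31 on the log2 scale.

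Cdc6, Tk1 and Pcna kept their calls when any 1 mouse was left out, in 10 of 10 fits. Mcm5 kept its call in 7 and Mcm3 in 3 of them. The number of the 40 genes called was 3 without PBS mouse 482, PBS mouse 592 or CpG1826 mouse 595, and 6 without PBS mouse 26, when Chaf1b was called as well. It was 11 after quantile normalization of the deposited values.

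**Figure D3:**
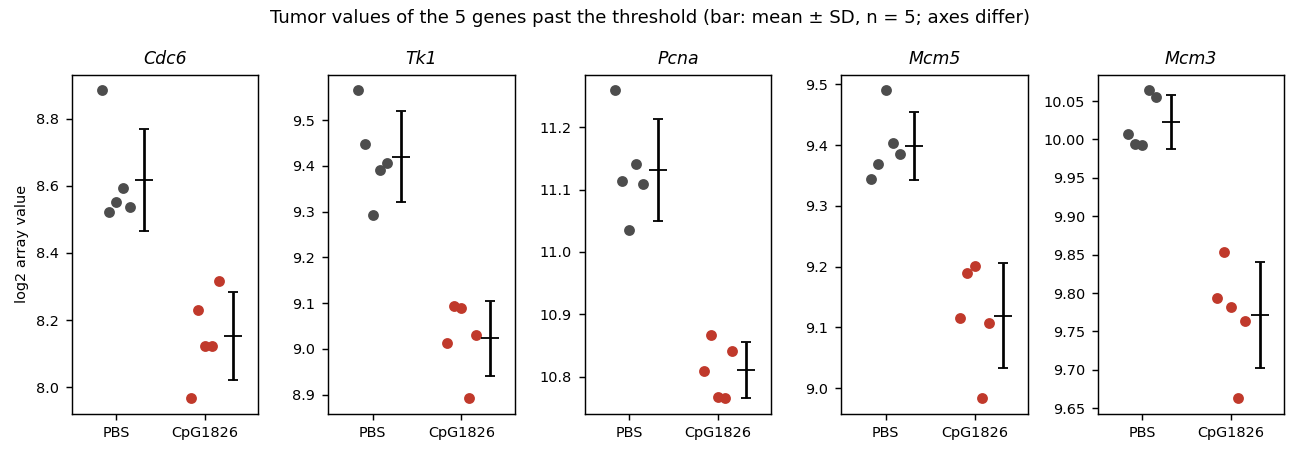
Log2 array values (y axis, a separate scale for each gene) of the 5 called genes in each tumor, PBS in grey and CpG1826 in red, with the mean ± SD of each group (n = 5) beside the points. In each panel the 5 CpG1826 tumors lie below the 5 PBS tumors, and for Cdc6 the PBS tumor at 8.89 stands above the other 4.

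The helicase core, the ring of 6 MCM proteins that unwinds DNA, held 2 of the 5 called genes, and its median log2 difference was -0.23. Mcm5 was 9.34, 9.37, 9.49, 9.40 and 9.39 in PBS tumors and 9.12, 9.19, 9.20, 8.98 and 9.11 in CpG1826 tumors, with mouse 189 lowest. It fell 1.21-fold (95% confidence interval 1.10 to 1.34, limma adjusted p = 0.0222). Mcm3 was 10.01, 9.99, 9.99, 10.06 and 10.06 against 9.79, 9.85, 9.78, 9.66 and 9.76, a fall of 1.19-fold (1.09 to 1.30, limma adjusted p = 0.0265).

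Mcm7 and Mcm6 also had groups that did not overlap but did not pass the threshold. Mcm7 ran from 9.94 to 10.25 in PBS and from 9.68 to 9.84 in CpG1826 tumors, a log2 difference of -0.28 ± 0.08 (SE, limma adjusted p = 0.0531). Mcm6 ran from 10.29 to 10.45 and from 10.05 to 10.28, a difference of -0.20 ± 0.07 (SE, limma adjusted p = 0.139). For Mcm2 and Mcm4 the groups overlapped, at -0.18 (95% confidence interval -0.32 to -0.03) and -0.12 (-0.32 to 0.08). The 6 subunits work in equal numbers in 1 ring, and all 6 differences lay between -0.28 and -0.12.

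The proteins that turn the ring into the active helicase, and 2 further MCM proteins, gave no limma call, with a median of -0.12 over 5 genes and 1 lower at an unadjusted p under 0.05. Cdc45, which stays bound to the moving helicase, was among the members with the smallest differences, -0.06 (-0.19 to 0.07), with PBS values of 8.66 to 8.86 and CpG1826 values of 8.69 to 8.77. Gins1, a subunit of the GINS complex, differed by -0.24 with a wide interval (-0.53 to 0.05), because CpG1826 values ran from 6.85 in mouse 189 to 7.81 in mouse 58, the highest of all 10. Gins2 was at -0.12, Mcm10, which helps to fire origins, at -0.12, and Mcm9, an MCM protein of recombination repair, at -0.21. The median of these 5 genes was -0.20 without PBS mouse 26, which was low for Gins2.

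Among the origin licensing genes Cdc6 stood alone in passing the test, and the median of the 5 was -0.13. Orc1, the largest ORC subunit, differed by -0.22 (-0.41 to -0.03, limma adjusted p = 0.233), Orc2 by -0.13 (-0.35 to 0.08) and Orc6 by -0.08 (-0.28 to 0.11). The other ORC subunits, which are outside the list, were at -0.05 for Orc3, 0.18 for Orc4 (0.02 to 0.33, limma adjusted p = 0.252) and -0.03 for Orc5. Cdt1, the partner of Cdc6 in loading, differed by -0.08 (-0.27 to 0.11). Whether Cdc6 changed more than these was not tested.

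Of the clamp and clamp loader genes only Pcna passed. The 5 loader subunits, which open the clamp and close it around DNA, had smaller differences, from -0.15 for Rfc2 (limma adjusted p = 0.310) to -0.04 for Rfc4 (95% confidence interval -0.19 to 0.11). Rfc1, Rfc3 and Rfc5 were at -0.11, -0.11 and -0.10. The median of the 6 genes was -0.11, and -0.18 without PBS mouse 26, which was low for Rfc1, Rfc3 and Rfc5.

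The polymerase and primase genes gave no limma call, with a median of -0.15 over 6 genes and 2 lower at an unadjusted p under 0.05. Pole, the catalytic subunit of the leading strand polymerase, had groups that did not overlap: from 8.96 to 9.10 in PBS and from 8.69 to 8.93 in CpG1826 tumors, a log2 difference of -0.18 ± 0.07 (SE, limma adjusted p = 0.170). Prim1, the catalytic subunit of primase, differed by -0.32 with more spread (-0.55 to -0.09, limma adjusted p = 0.140), from 8.74 to 9.23 in PBS and from 8.41 to 8.87 in CpG1826 tumors. Its partner Prim2 was at -0.07, and Pola1 and Pola2, of the polymerase that extends primers, were at -0.12 and -0.16. Pold1, the catalytic subunit of the lagging strand polymerase, was at -0.13. Its accessory subunits, outside the list, were at 0.01 for Pold2, 0.12 for Pold3 and 0.19 for Pold4 (0.05 to 0.33, limma adjusted p = 0.144). The Pold4 values of all 5 CpG1826 tumors lay above those of all 5 PBS tumors, as for 868 of all 19938 genes.

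Genes that protect single-stranded DNA or finish Okazaki fragments had a median of -0.20 over 4 genes, with 0 called by limma and 3 lower at an unadjusted p under 0.05. Lig1, the ligase that seals the fragments, was 9.63, 9.51, 9.47, 9.53 and 9.49 in PBS and 9.22, 9.38, 9.36, 9.29 and 9.31 in CpG1826 tumors, without overlap, a difference of -0.21 ± 0.06 (SE, limma adjusted p = 0.0751). Fen1, the flap nuclease that acts just before it, differed by -0.26 ± 0.08 (SE, limma adjusted p = 0.110), with CpG1826 mouse 58 inside the PBS range. Rpa1 and Rpa2, subunits of the single-strand binding protein, were at -0.17 and -0.19.

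Of the nucleotide supply genes Tk1 passed, and the other 3 lay close together. Rrm1 and Rrm2, the subunits of ribonucleotide reductase, differed by -0.17 (-0.33 to -0.01, limma adjusted p = 0.272) and -0.18 (-0.37 to 0.02, limma adjusted p = 0.380), and Tyms, thymidylate synthase, by -0.18 (-0.37 to 0.01, limma adjusted p = 0.354). In these 3 genes CpG1826 mouse 189 was the lowest of all 10 tumors, at 10.45 for Rrm1, 9.39 for Rrm2 and 8.31 for Tyms.

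The 2 genes of CAF-1 in the list, Chaf1a and Chaf1b, encode its larger subunits, which deposit histones behind the fork, and both had a lower mean without passing. Chaf1b was 9.02, 9.18, 9.08, 9.21 and 9.18 in PBS and 8.82, 8.92, 8.93, 8.67 and 8.98 in CpG1826 tumors, without overlap, a difference of -0.27 ± 0.07 (SE, limma adjusted p = 0.0544), and Chaf1a was at -0.18 (limma adjusted p = 0.171). Rbbp4, the remaining subunit and also part of other chromatin complexes, is outside the list and was at 0.05 (95% confidence interval -0.12 to 0.23). The genes of cyclin E, the activator of CDK2 at the start of S phase, did not pass either. Ccne1 ran from 8.92 to 9.25 in PBS and from 8.90 to 9.19 in CpG1826 tumors, a difference of -0.04 (95% confidence interval -0.22 to 0.14) that was 0.00 without PBS mouse 592. Ccne2 was at -0.13 (-0.44 to 0.18), from 7.08 to 7.57 in PBS and from 6.65 to 7.39 in CpG1826 tumors.

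For all 40 genes the 95% confidence interval left out a fall of 2-fold, the largest fall inside an interval being 1.57-fold, for Cdc6. The largest rise inside an interval was 0.18 on the log2 scale, for Ccne2.

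The role groups were compared in each tumor by the mean, over their genes, of the log2 value minus that gene's PBS mean, as a description without a test. CpG1826 minus PBS was -0.22 for the helicase core, -0.20 for origin licensing, -0.16 for polymerases and primase and -0.23 for nucleotide supply. The helicase core ran from -0.05 to 0.05 in PBS and from -0.31 to -0.13 in CpG1826 tumors. Origin licensing ran from -0.05 to 0.09 and from -0.33 to -0.08. Nucleotide supply ran from -0.08 to 0.05 and from -0.44 to -0.10. In these 3 groups all 5 CpG1826 tumors lay below all PBS tumors. Taken singly, 4 of the 6 helicase core genes had groups that did not overlap. In origin licensing this held for Cdc6 alone and in nucleotide supply for Tk1 alone. The means of these roles were not computed without Cdc6 or Tk1, so the separation may rest on them. Polymerases and primase ran from -0.09 to 0.09 and from -0.34 to -0.02, with 4 of 5 CpG1826 tumors below all PBS tumors. The differences between these 4 roles were smaller than the ranges over the CpG1826 tumors.

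**Figure D4:**
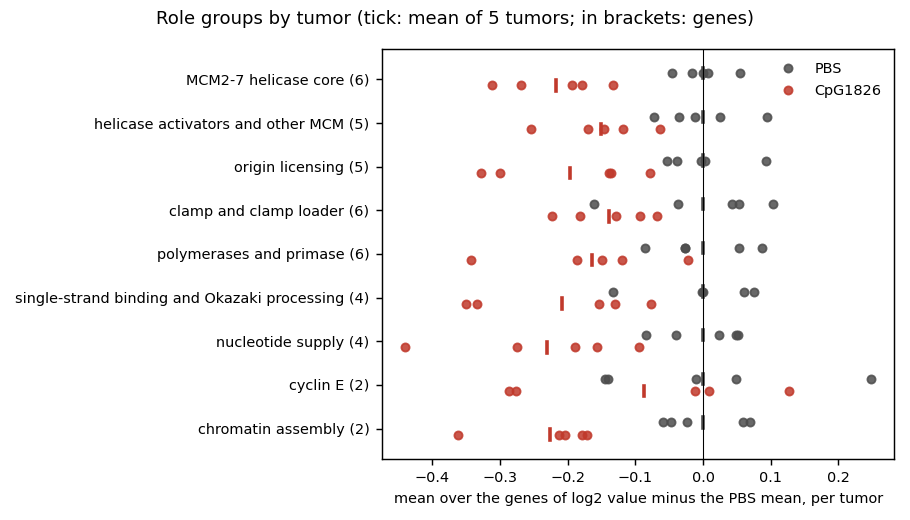
Mean over the genes of each role (y axis, number of genes in brackets) of the log2 value minus the gene's PBS mean (x axis), 1 point per tumor, PBS in grey and CpG1826 in red, with a vertical tick at the mean of the 5 tumors. The red points lie below the grey points without overlap for the helicase core, origin licensing, nucleotide supply and chromatin assembly, and overlap with them for cyclin E and the other 4 roles. Taken singly, only Cdc6 in origin licensing, Tk1 in nucleotide supply and Chaf1b in chromatin assembly had groups that did not overlap.

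Tumors of 1 group differed from each other across the whole set. CpG1826 mouse 189 was the lowest of the 10 tumors for 25 of the 40 genes and CpG1826 mouse 50 for 8, while PBS mouse 592 was the highest for 18. The mean of the 40 genes relative to PBS was -0.31 in CpG1826 mouse 189, -0.23 in mouse 50, -0.15 in mouse 183, -0.13 in mouse 595 and -0.08 in mouse 58. In PBS tumors it ran from -0.08 in mouse 26 to 0.09 in mouse 592, so that mouse 58 and PBS mouse 26 lay side by side. Without mouse 189 the median log2 difference of the 40 genes was -0.12, and without PBS mouse 592 it was -0.15.

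PBS mouse 26 did not follow the other PBS tumors. It was the highest of all 10 tumors for 7 of the 40 genes, among them Cdc6, Tk1, Pcna and Mcm7, and the lowest for 5, among them Rfc5 and Orc6. Without it the median log2 difference was -0.19.

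**Figure D5:**
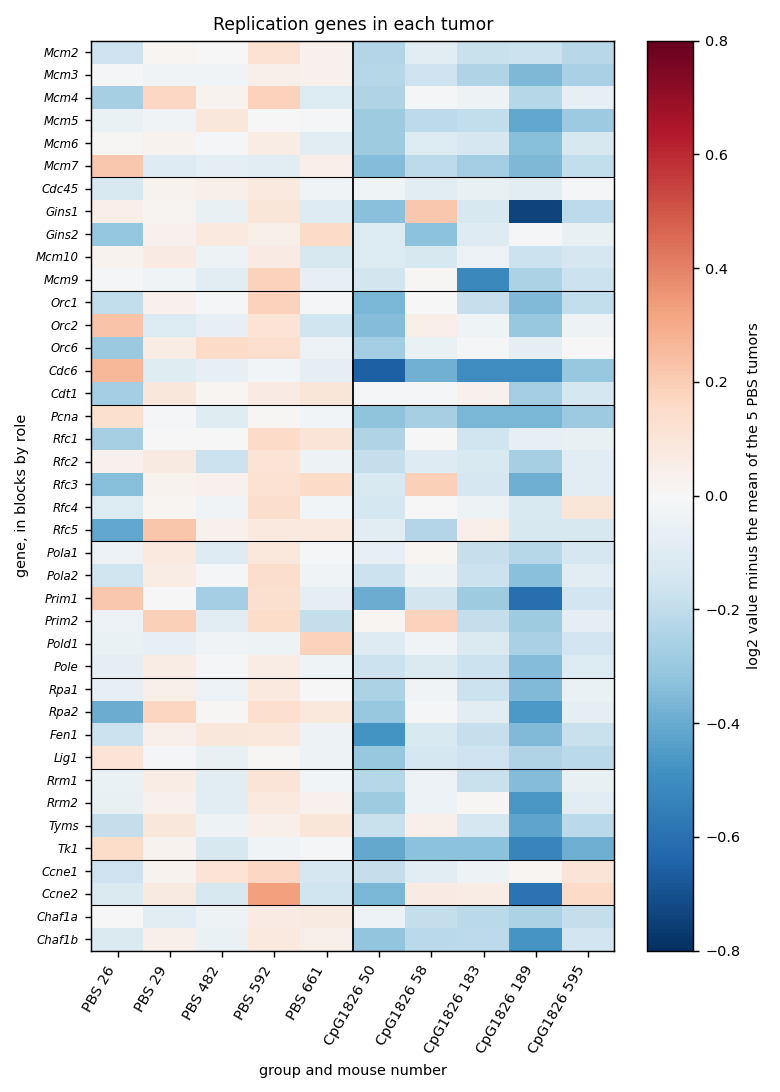
Log2 value minus the mean of the 5 PBS tumors (colour, blue below and red above) for the 40 genes (rows, in blocks by role) in the 10 tumors (columns, group and mouse number). Blue prevails in the 5 CpG1826 columns and is deepest in mouse 189, and the column of PBS mouse 26 holds both red and blue cells.

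Markers of some other cell types differed between CpG1826 and PBS tumors. Keratinocyte markers rose in 13 of 17 cases and fell in 0, and the sum of their signals, on the linear scale, ran from 931 to 1279 in PBS and from 2486 to 4434 in CpG1826 tumors. Of 11 neutrophil markers 6 rose and 0 fell, with sums of 1167 to 1542 and 1859 to 2117. Of 11 monocyte and macrophage markers 0 rose and 3 fell, Csf1r, Ccr2 and Cx3cr1, with sums that overlapped. Itgam of this list was higher by 0.32 on the log2 scale, without overlap between the groups, but did not pass (limma adjusted p = 0.0914). Among T and NK cell, B cell and fibroblast markers 0 of 13, 0 of 6 and 0 of 9 passed the limma test, while 2, 1 and 2 had a lower level at p under 0.05 without adjustment. Of 8 dendritic cell markers Ccr7 rose and 0 fell by limma, while 7 were below 0 and Clec9a was lower at an unadjusted p under 0.05. Of 8 endothelial markers 0 rose and Tek fell by limma, while Pecam1 was higher at an unadjusted p under 0.05. The mean log2 level of the keratinocyte markers was 5.68, 5.79, 5.79, 5.44 and 5.98 in PBS mice 26, 29, 482, 592 and 661, and 7.31, 7.08, 6.88, 7.51 and 7.10 in CpG1826 mice 50, 58, 183, 189 and 595. In the same order, the mean of the 40 replication genes relative to the PBS mean was -0.08, 0.03, -0.03, 0.09 and -0.01, and -0.23, -0.08, -0.15, -0.31 and -0.13. Mice 189 and 50 were highest in the markers and lowest in the replication genes, and PBS mouse 592 was lowest in the markers and highest in the replication genes. Among the other 3 CpG1826 tumors mouse 183 was lowest in both. PBS mouse 26 was next to lowest of the PBS tumors in the markers and lowest of them in the replication genes. In the mean of monocyte and macrophage markers, mouse 50 was lowest of the CpG1826 tumors and mouse 189 next (9.64 and 9.77). The others were at 9.87 to 10.08. The same order held for T and NK cell markers (6.47 and 6.95, the others 7.12 to 7.33) and for endothelial markers. In neutrophil markers mouse 50 was highest (6.53) and mouse 189 next to lowest (6.24). Mouse 189 was highest in B cell (5.40) and dendritic cell markers (6.10). The part of any of these cell types in the fall of replication genes was not tested. Of 9 epithelial markers that a colon carcinoma could carry, Epcam and Cdh1 rose (0.32 and 0.63 on the log2 scale) and 7 did not pass, and the file holds no detection calls from which the presence of any could be read.

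Other replication genes, from lists that do not overlap the 40, were lower in part. At an unadjusted p under 0.05, 11 of 32 further fork genes were lower and 2 (Orc4 and Pold4) higher, where 1481 and 1620 of all 19938 genes were. Of the 32, 24 were below 0, the median was -0.08, and 1 fell and 0 rose by limma. The one that fell was Dna2, a nuclease and helicase of Okazaki fragments and resection, at 7.89, 7.98, 7.85, 8.14 and 8.04 in PBS and 7.25, 7.58, 7.68, 7.20 and 7.68 in CpG1826 tumors, a fall of 1.42-fold (95% confidence interval 1.21 to 1.66, limma adjusted p = 0.0132). Of 14 further nucleotide genes Slc29a1, a nucleoside transporter, fell by 0.25 on the log2 scale (limma adjusted p = 0.0380). Its call was kept in 1 of the 10 fits without 1 mouse. Of the 14, 3 were lower and 0 higher at an unadjusted p under 0.05, and the median was -0.09. Of 9 further S phase chromatin genes 1 fell, Asf1b, a histone chaperone that works with CAF-1, by 0.33 (limma adjusted p = 0.0112). Of the 9, 5 were lower and 0 higher at an unadjusted p under 0.05, and the median was -0.20. The calls of Dna2 and Asf1b were kept in all 10 fits.

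Among regulators of the G1 to S step only E2f8 passed the limma test. Of 13 E2F and pocket protein genes 1 fell, E2f8, a repressor among the E2F factors, by 0.41 (limma adjusted p = 0.0250), from PBS values of 9.23 to 9.33 to CpG1826 values of 8.60 to 9.16. Its call was kept in 3 of the 10 fits without 1 mouse. Of the 13, 5 were lower and 0 higher at an unadjusted p under 0.05, where 7.43% of all genes were lower. Their median was -0.13, with 10 below 0. E2f1, an activator, differed by -0.13 (limma adjusted p = 0.373). Of 10 cyclin and kinase genes 0 passed, 4 were lower and 0 higher at an unadjusted p under 0.05, and the smallest p was that of Skp2, part of the ubiquitin ligase that removes p27 (-0.27, limma adjusted p = 0.0633). Of 6 CDK inhibitor genes 0 passed, 2 were lower and 1 higher at an unadjusted p under 0.05, with Cdkn2b, encoding p15, at -0.23 (limma adjusted p = 0.130) and Cdkn1b, encoding p27, at 0.08 (limma adjusted p = 0.660). Mki67, a general marker of cycling cells, differed by -0.11 (limma adjusted p = 0.481).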

How the data were processed

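The deposited table gives 1 log2 value per probe and array, on a scale read from the values, for 10 arrays. R 2.7.1 and limma appear in the submitters' processing notes without a stated use. The sources used here do not give the background correction, summarization or normalization, and if distributions were equalized, a shift common to most genes would be hidden. Array medians lay between 6.47 and 6.53, and the correlation between arrays was 0.980 to 0.994. Precision is limited by the number of arrays.

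Of 35512 probes, 21789 carry 1 gene symbol in the array's annotation and were used, giving 19938 genes. Each gene was fitted with limma 3.58.1 in R 4.3.3 (lmFit and eBayes, two-sided, Benjamini-Hochberg over all genes, threshold 0.05), without a block. The fit was tested on simulated data.

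The members and lists were chosen with earlier results of these data known. All members are described. Those given in full were called, had groups that did not overlap, or had the largest differences, or the smallest p or the highest level in their role. Of the other lists, genes called and the gene with the smallest p were named. E2f1, Cdkn1b, Mki67, Rbbp4, Orc3 to Orc5 and Pold2 to Pold4 were added after their values were seen. Some listed genes, among them Impdh2, Cdkn1a and H2afz, lacked a probe with a single symbol and were not analysed here. Alternatives were quantile normalization, median centring, 2 filters on low genes, array weights, a trended robust prior, averaged probes, an adjusted p under 0.01 and leaving out each mouse, and, chosen after seeing the data, the other probe of Pcna and Tk1.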

Additional observations from a re-analysis of the deposited data

Results flagged for a closer look

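Each of the 40 genes was looked at in both groups for 1 tumor far from the other 4 of its group, by the gap to the nearest tumor as a share of the group's range. Of 80 such looks 9 met the criterion, where chance gives about 1 in 20, and 5 of the 9 were PBS mouse 26. It was high for Cdc6 (8.89, the others 8.52 to 8.59) and low for Gins2 (7.69, the others 8.04 to 8.15), Cdt1 (8.70, the others 8.99 to 9.06), Rfc3 (8.41, the others 8.77 to 8.90) and Rpa2 (8.05, the others 8.46 to 8.62). PBS mouse 592 was high for Mcm9 (7.73, the others 7.45 to 7.53), and PBS mouse 661 for Pold1 (8.41, the others 8.16 to 8.20). CpG1826 mouse 50 was low for Orc6 (9.12, the others 9.32 to 9.39), and CpG1826 mouse 189 for Pole (8.69, the others 8.86 to 8.93). Without PBS mouse 26 Cdc6 differed by -0.40 on the log2 scale and kept its call.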

How the results depend on the processing

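The 40 genes stayed below 0 under every scaling, filter, prior and probe setting run (39 of 39 under the filter at the median level, which removes Orc1), and in the fits without 1 mouse with 1 exception, Ccne1, which ran from -0.083 to 0.00065 (without PBS mouse 592). Their median was -0.20 to -0.12 over all settings. The count of the 40 called lower was 11 after quantile normalization, 9 without genes below the median level, 8 without the lower quartile, 8 with a trended robust prior, 3 at an adjusted p under 0.01 and 3 to 6 without 1 mouse. Cdc6, Tk1 and Pcna were called in each. Over all genes, 710 were higher and 220 lower. The lower count was 364 after quantile normalization, 338 without genes below the median level and 121 to 209 without 1 mouse, and at an adjusted p under 0.01 the counts were 407 and 64. Median centring gave 732 higher and 188 lower genes. The median of the helicase activators was -0.20 to -0.11 and that of cyclin E -0.14 to -0.03 without 1 mouse. Slc29a1 lost its call after median centring (limma adjusted p = 0.0565; 0.0497 to 0.0959 without 1 mouse). The other probe of Pcna and Tk1 left the same 5 calls. The causes of these shifts were not tested. No paired analysis was possible because the groups share no mouse number. The file gives no background level against which low values could be read.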
